A study of Mus musculus with 30 samples.

Results

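The genes described are 10 subunits of the NMDA and kainate classes of ionotropic glutamate receptor: Grin1, Grin2a, Grin2b, Grin2d and Grin3a for the NMDA class, and Grik1, Grik2, Grik3, Grik4 and Grik5 for the kainate class. They were taken by name, as the rows of the deposited count table whose identifiers carry these symbols in the GENCODE M21 annotation, and they are 10 of 55335 genes. The list was chosen with earlier results of these data known. Their levels were read in ribosome-bound RNA from the nucleus accumbens of female mice (Mus musculus). In all animals a Cre driver switched on an HA-tagged ribosomal protein (RiboTag, RT) in 1 class of medium spiny neuron, the main output neuron of the striatum: D1-Cre-RT mice for the class with the dopamine D1 receptor, and A2A-Cre-RT mice for the class with the D2 receptor, called D2 below. For each genotype there were Control mice and mice that had gone through chronic witness defeat stress, whose later behaviour toward other mice in a social interaction test placed them in a Resilient or a Susceptible group. This gave 6 groups of 5 libraries, 30 in all. No source used here gives their ages. A library pooled punches from 4 mice with similar interaction scores, so a replicate is a pool and the spread between single mice cannot be seen. Punches were collected 24 h after that test, and libraries were made from 10 ng of RNA. Controls and stressed mice alike carried Cre and the tagged ribosome, and no unprecipitated RNA was analysed here.

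NMDA receptors open when glutamate binds their GluN2 subunits and glycine or D-serine binds the obligatory GluN1 subunit (Grin1), and only when depolarization has lifted a magnesium block. They carry calcium and drive synaptic plasticity at the cortical inputs to medium spiny neurons. Kainate receptors are built from the low-affinity subunits GluK1 to GluK3 (Grik1 to Grik3), which can form channels alone, and the high-affinity subunits GluK4 and GluK5 (Grik4 and Grik5), which need one of the former. They act on both sides of the synapse, modulating transmitter release and slow excitation.

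Gene counts per library ran from 28996168 to 65882152. Markers of the neuron classes were read as a check of the labels. The summed level of 7 D1-neuron markers was 1712 to 2578 CPM (counts scaled to a common library size) in D1 libraries and 275 to 1837 in D2 libraries, and that of 5 D2-neuron markers was 1120 to 2771 against 4867 to 12799. D2-marker sums thus separated the classes. D1-marker sums did not: D2 Resilient replicate 5, at 1837, lay above 3 D1 libraries (D1 Susceptible replicates 1 and 5 and D1 Control replicate 1, at 1712, 1733 and 1754). D2 Control replicate 5 was next among D2 libraries, at 1231. D2 Susceptible replicates 1 and 2 stood apart with the fewest genes detected, 15822 and 16525 against 19440 to 22375 in the others. In D1 Susceptible replicate 1, 53.3% of reads were not assigned to a gene for any reason (outside genes, ambiguous or not uniquely aligned reads), against 10.1% to 15.7% elsewhere. The factor that scaled its library size (edgeR's TMM) was 0.340, against 0.957 to 1.08 in the others, which raised its CPM values. Its 999 CPM of Grin2b, 285 of Grin2a and 117 of Grik2, each the highest of all libraries, rest on this scaling. Main calls of subunits and partner genes between the classes are given with and without D2 Control replicate 5, D2 Resilient replicate 5 or D2 Susceptible replicates 1 and 2. Without D1 Susceptible replicate 1, Grin2d, Grin3a, Grik1 and Grik4 stayed called between the classes in Susceptible mice, and Grik2 did not. Calls of partner genes are not given without that library. In RNA pooled over a tissue punch, fewer cells of a type and less RNA per cell cannot be told apart.

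All 10 subunits passed the filter on low counts, and the lowest count of any of them in any library was 33, for Grin2d. Compared per kilobase (kb) of annotated exon, the levels spanned 2 orders of abundance. The median over 30 libraries was highest for Grin1 at 40.5 CPM per kb, followed by Grik5 at 30.5 and Grin2b at 24.9. Grik3 stood at 12.5 CPM per kb, Grin2a at 9.06 and Grik2 at 5.96. The lower end held Grik4 at 3.30 CPM per kb, Grin3a at 1.96, Grik1 at 0.820 and Grin2d at 0.385. Dividing by the longest transcript in place of all exons left this order as it was, but raised the level of Grin1 2.27 times, Grik1 1.84 times and Grin3a 1.64 times.

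Within each class of receptor the mix of subunits was therefore uneven. Among the GluN2 subunits listed, Grin2b made up 68.4% to 80.5% of the signal per length in a library, Grin2a 18.9% to 29.9% and Grin2d 0.269% to 2.87%. Among the kainate subunits, Grik5 made up 44.1% to 65.8%, Grik3 17.8% to 39.0% and Grik2 7.73% to 15.6%. Grik4 made up 3.50% to 9.04% and Grik1 0.267% to 3.48%. Of the 5 subunits called between neuron classes, described next, 4 held the bottom places in this order (Grin2d, Grik1, Grin3a and Grik4), and the other was Grik2.

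The first question was which subunits differ between D1 and D2 libraries, asked separately in Control, Resilient and Susceptible mice. Counts were tested with edgeR's quasi-likelihood F test, p-values were adjusted by Benjamini-Hochberg over 19368 genes, and a gene was called at an adjusted p under 0.05. The call took 2 of 10 subunits in Control, 4 of 10 in Resilient and 5 of 10 in Susceptible libraries, all of them higher in D1. Of all genes tested, 8.3%, 6.65% and 23.9% were called in these comparisons, and 3.51%, 2.75% and 10.5% were called as higher in D1. In Susceptible mice the share of all genes called was 10.4% without D2 Susceptible replicates 1 and 2, with 4 of 10 subunits, and 5.48% in a fit of only the groups compared, with 3 of 10. Lower in D1 were 0 of 10 subunits, beside 4.8%, 3.9% and 13.4% of genes. At an unadjusted p under 0.05 there were 7, 5 and 6 subunits, beside 20%, 15.2% and 36.6% of genes. Grin3a and Grik1 were called in all 3, as were 1.67% of genes in the direction of D1. The median log2 difference of the 10 subunits was 0.21, 0.16 and 0.52, beside -0.003, -0.003 and 0.02 for all genes. The plot of D1 minus D2 differences shows the subunits side by side.

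**Figure D1:**
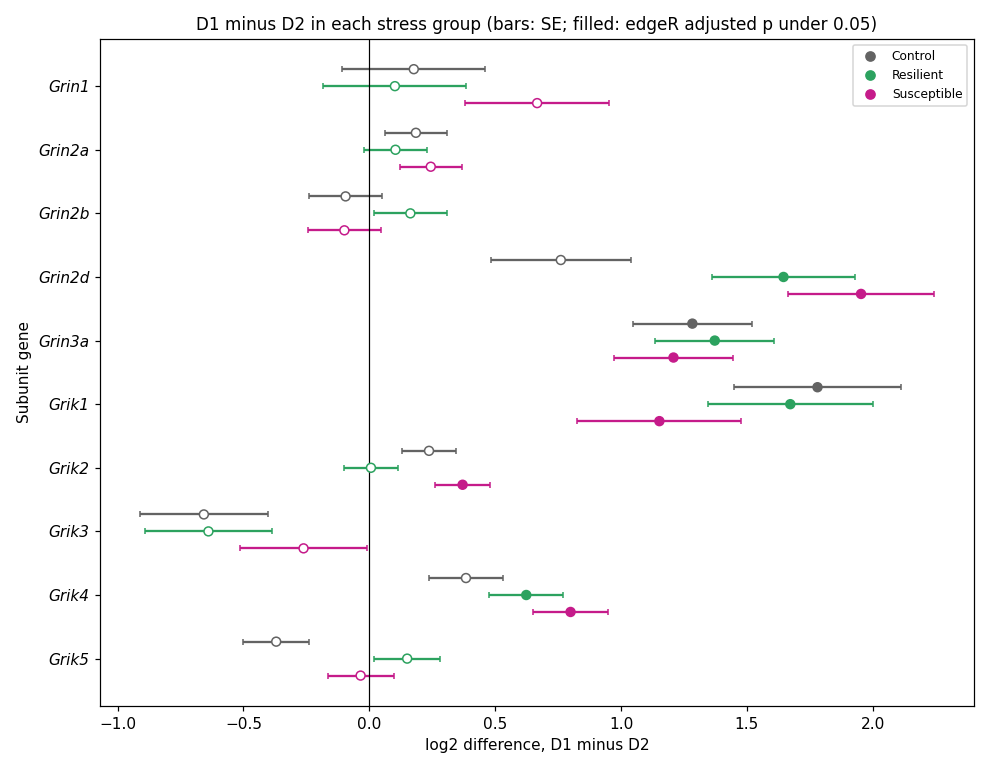
log2 difference between D1 and D2 libraries (x axis, D1 minus D2) for the 10 subunits (y axis) in Control, Resilient and Susceptible mice; points are edgeR estimates, bars are standard errors (SE), and filled points have an adjusted p under 0.05. Every filled point lies to the right of 0, and Grin3a and Grik1 are filled in all 3 groups.

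Grin1 (chromosome 2, 25291181 to 25319187, minus strand, GRCm38) encodes the subunit that every NMDA receptor contains. Its mean level was 391 ± 47.3 CPM in D1 Control, 388 ± 60.3 in D1 Resilient and 435 ± 36.8 in D1 Susceptible (mean ± SD, n = 5 libraries here and below). In the D2 groups it was 346 ± 85.7, 362 ± 65.2 and 274 ± 172 CPM. The groups overlapped in each comparison of D1 with D2, and none was called. The wide spread in D2 Susceptible came from values of 96.7, 114, 489, 274 and 397 CPM in replicates 1 to 5. The first 2 of these, the libraries with few genes detected, were the lowest of all 30. The log2 difference in Susceptible mice, 0.67 (SE 0.285, adjusted p = 0.0891), was 0.19 (adjusted p = 0.606) without them. It was called without D2 Susceptible replicate 3 (1.00, adjusted p = 0.00749) and without replicate 5 (0.86, adjusted p = 0.0334), where 31.4% and 29.4% of genes were called. Grin1 shares 13.5% of its exon bases with the antisense gene Grin1os, and the strand setting of the counting is not given, so reads of the pair cannot be separated.

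Grin2a (chromosome 16, 9567898 to 9995560, minus strand) and Grin2b (chromosome 6, 135713233 to 136173511, minus strand) encode GluN2A and GluN2B, the glutamate-binding subunits that dominate in the forebrain. Grin2a averaged 170 ± 19.4, 160 ± 12.9 and 191 ± 59.7 CPM in D1 Control, Resilient and Susceptible libraries. In D2 libraries it averaged 149.5 ± 9.84, 149 ± 10.1 and 161 ± 9.56 CPM. Neither class stood above the other beyond the spread between libraries, and no Grin2a difference was called. Grin2b averaged 607 ± 21.3, 649 ± 40.0 and 730 ± 243 CPM in the D1 groups and 648 ± 88.1, 579 ± 23.3 and 782 ± 154 CPM in the D2 groups. In Resilient mice all 5 D1 libraries (610 to 713 CPM) lay just above all 5 D2 libraries (554 to 609 CPM). The 2 groups were likewise separate, in either direction, for 9.7% of genes. That difference was 0.16 on the log2 scale and was not called. The ratio of Grin2b to Grin2a per length ran from 2.29 to 4.25 over the 30 libraries, and its group means from 2.60 in D1 Control to 3.49 in D2 Susceptible overlapped in range.

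Grin2d (chromosome 7, 45831883 to 45878378, minus strand) encodes GluN2D, which gives slowly closing channels with a weak magnesium block and is known in the adult forebrain mainly from interneurons. The 5 D1 Control libraries held 4.96, 3.87, 4.20, 2.94 and 2.11 CPM, and the 5 D2 Control libraries 1.85, 2.32, 1.96, 1.64 and 2.90 CPM. These overlapped, and the difference of 0.76 (SE 0.277, adjusted p = 0.0913) was not called by edgeR. DESeq2's Wald test (adjusted p = 0.0431) and limma's voom with quality weights (adjusted p = 0.0436) called it, in fits that called 12.3% and 28.5% of all genes. In D1 Resilient the values were 3.36, 4.20, 4.16, 4.45 and 3.62 CPM, and in D2 Resilient 0.742, 0.861, 1.59, 1.56 and 1.57 CPM. Every D1 Resilient library was higher than every D2 Resilient one, and 9.7% of all genes separated these groups in either direction. The difference was 1.65 (SE 0.284, adjusted p = 0.000176, edgeR), or 3.13-fold. D1 Susceptible libraries held 3.35, 2.81, 2.86, 5.71 and 4.02 CPM, and D2 Susceptible libraries 1.16, 1.05, 1.18, 0.658 and 0.809 CPM. Again no values overlapped, as in 8.92% of all genes, and the difference was 1.95 (SE 0.289, adjusted p = 1.7e-05, edgeR), or 3.87-fold. Without D2 Susceptible replicates 1 and 2 it was 2.12 (adjusted p = 3.1e-05), and in Resilient mice without D2 Resilient replicate 5 it was 1.75 (adjusted p = 0.000226). Whether the difference between classes itself differed with stress is given below. Grin2d shares 9.66% of its exon bases with the antisense gene Gm45441, with the same limit as for Grin1.

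Grin3a (chromosome 4, 49661611 to 49845744, minus strand) encodes GluN3A, which binds glycine and lowers the calcium flow and magnesium block of the receptors it joins. In D1 Control, Resilient and Susceptible it averaged 34.2 ± 4.64, 32.8 ± 6.39 and 28.0 ± 2.28 CPM, and in the D2 groups 14.1 ± 6.05, 12.7 ± 4.78 and 12.1 ± 3.91 CPM. The single libraries were 27.4, 39.4, 37.3, 32.5 and 34.7 CPM in D1 Control and 8.80, 9.57, 11.6, 17.1 and 23.2 CPM in D2 Control. The lowest of the 15 D1 libraries, at 24.8 CPM, was above the highest of the 15 D2 libraries, at 23.2 CPM. Within Control, Resilient and Susceptible mice, 11.7%, 9.7% and 8.92% of all genes separated the 5 libraries of each class, in either direction. The share of genes that separate all 15 from all 15 was not computed. Grin3a was higher in D1 by 1.28 in Control (SE 0.236, adjusted p = 0.000491), 1.37 in Resilient (SE 0.237, adjusted p = 0.000196) and 1.21 in Susceptible libraries (SE 0.237, adjusted p = 0.000593), all by edgeR. In fold terms this was 2.43, 2.59 and 2.31. The highest D2 values in Control and Resilient, 23.2 and 20.6 CPM, were those of the 2 libraries with the highest D1-marker sums. Leaving these out in turn gave 1.55 (adjusted p = 2.57e-05) in Control and 1.63 (adjusted p = 1.08e-05) in Resilient mice. In Susceptible mice the difference was 1.46 (adjusted p = 0.000949) without D2 Susceptible replicates 1 and 2.

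**Figure D2:**
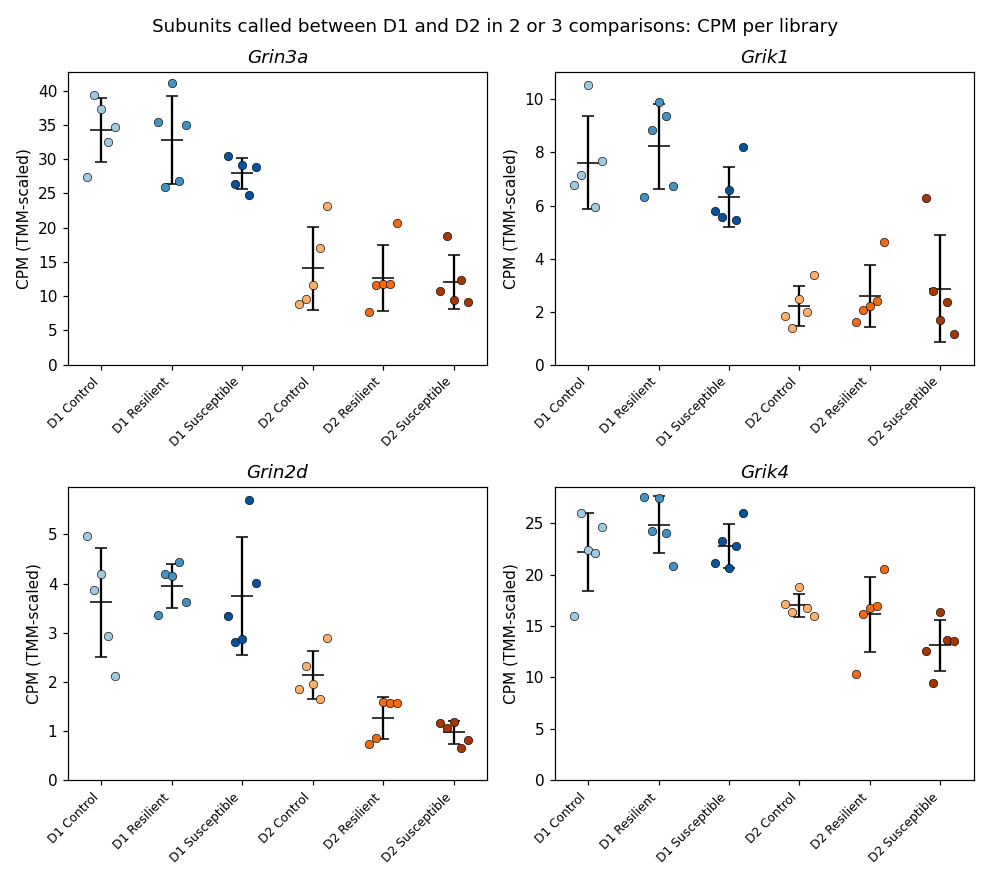
CPM (y axis, linear, from 0) of Grin3a, Grik1, Grin2d and Grik4 in the 6 groups (x axis); each point is 1 library, ordered by replicate number, and the black bars are the mean ± SD of 5 libraries. For Grin3a no D2 library reaches the lowest D1 value of 24.8 CPM, and for Grik1 1 D2 Susceptible library, at 6.29 CPM, lies among the D1 values. The share of all genes that separate all D1 from all D2 libraries was not computed.

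Grik1 (chromosome 16, 87895900 to 88290265, minus strand) encodes GluK1, a low-affinity subunit. It had the largest difference between classes in Control mice among the 10 subunits. D1 Control libraries held 6.78, 7.13, 10.6, 5.95 and 7.67 CPM, and D2 Control libraries 1.85, 1.38, 2.47, 1.97 and 3.40 CPM. The groups did not overlap, as in 11.7% of all genes. Grik1 was higher in D1 by 1.78 (SE 0.330, adjusted p = 0.000489, edgeR), or 3.43-fold. In Resilient mice the D1 libraries ran from 6.34 to 9.88 CPM and the D2 libraries from 1.61 to 4.62 CPM, a difference of 1.67 (SE 0.329, adjusted p = 0.000826). Without D2 Resilient replicate 5, the highest of these D2 values, it was 2.00 (adjusted p = 0.000105), and the Control difference without D2 Control replicate 5 was also 2.00 (adjusted p = 0.000249). In Susceptible mice the D1 libraries held 5.78, 5.58, 6.60, 5.44 and 8.20 CPM, and the D2 libraries 6.29, 2.77, 1.70, 2.37 and 1.16 CPM. Here the groups overlapped through D2 Susceptible replicate 1 alone, and the difference was 1.15 (SE 0.326, adjusted p = 0.0107), or 2.22-fold. Without D2 Susceptible replicates 1 and 2 it was 1.88 (adjusted p = 5.95e-05), while in a fit of the 2 groups alone the call was lost (1.15, adjusted p = 0.118).

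Grik2 (chromosome 10, 49094833 to 49788766, minus strand) encodes GluK2, a low-affinity subunit widely found in striatal neurons. It averaged 84.0 ± 8.76, 83.7 ± 7.71 and 95.8 ± 17.3 CPM in the D1 groups and 71.3 ± 7.74, 83.4 ± 8.81 and 74.0 ± 7.27 CPM in the D2 groups. In Susceptible mice the D1 libraries held 117, 96.0, 99.6, 69.2 and 96.7 CPM and the D2 libraries 67.2, 65.6, 78.4, 76.2 and 82.4 CPM. These overlapped at 1 D1 library, and the difference of 0.37 (SE 0.109, adjusted p = 0.0137, edgeR) was called. The call was lost without D1 Susceptible replicate 1, the library with the largest share of reads outside genes (0.29, adjusted p = 0.0544), and without D2 Susceptible replicates 1 and 2 together (0.30, adjusted p = 0.107).

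Grik3 (chromosome 4, 125490700 to 125714173, plus strand) encodes GluK3, a low-affinity subunit that needs high glutamate to open, and Grik4 (chromosome 9, 42518135 to 42944493, minus strand) encodes GluK4, a high-affinity one. Their differences between the classes had opposite signs in all 3 comparisons, and the DNA just upstream of both is shown as an example. Other subunits, such as Grin2d, also had a sign opposite to that of Grik3 in all 3, so the signs do not single out this pair. The RefSeq promoter table (GRCm38.p6) held 6 of the 10 subunits, and Grin2a, Grin2b, Grin3a and Grik1 were not among them. Printed are the 250 bases before the start of Grik3, at chr4:125490446-125490695 on the plus strand, and the 128 bases at chr9:42944494-42944621 on the minus strand before Grik4. The 122 bases next to these lie in an annotated exon of Grik4 and are left out. Capitals mark GC boxes, the letters GGGCGG on either strand.
Grik3: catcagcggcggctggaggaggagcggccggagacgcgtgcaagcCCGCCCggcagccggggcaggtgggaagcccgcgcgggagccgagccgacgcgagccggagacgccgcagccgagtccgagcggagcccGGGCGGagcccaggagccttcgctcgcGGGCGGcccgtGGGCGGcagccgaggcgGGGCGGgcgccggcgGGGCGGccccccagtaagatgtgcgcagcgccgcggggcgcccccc
Grik4: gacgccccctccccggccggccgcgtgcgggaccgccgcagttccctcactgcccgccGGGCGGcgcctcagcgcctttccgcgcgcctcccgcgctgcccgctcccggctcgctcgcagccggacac
The Grik3 stretch held 6 GC boxes and the Grik4 stretch 1. Both were rich in G and C, 82% in either, beside a median of 52.4% over all RefSeq promoter windows of 250 bases. The whole 250-base window of Grik4, exon bases included, was 69.6% G and C. At least 1 GC box occurred in 32.7% of all RefSeq promoter windows of 250 bases, and in 13.8% of their first 128 bases. Neither stretch held TATAAA, found in 12.4% of the longer and 6.38% of the shorter windows, or the letters TGACGTCA of a cyclic AMP response element, found in 1.55% and 0.259%. CACGTG was also in neither, with 6.02% and 2.35% of windows holding it. In the 250-base windows not printed, any exon bases included, Grin1, Grin2d and Grik2 held 0 GC boxes and Grik5 held 2. These matches describe the letters only.

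Grik3 was the 1 subunit with a negative estimate, lower in D1, in all 3 comparisons. D1 Control libraries held 122, 106, 100.3, 102 and 88.9 CPM, and D2 Control libraries 211, 210.2, 184, 107 and 107 CPM. The last 2 of these lay within the D1 range, and the difference of -0.66 (SE 0.254, adjusted p = 0.119, edgeR) was not called. It was -0.64 (adjusted p = 0.170) in Resilient and -0.26 (adjusted p = 0.483) in Susceptible mice. Across the 15 D2 libraries, Grik3 was 93.7 to 107 CPM in 5 of them (Control replicates 4 and 5, Resilient replicate 5, Susceptible replicates 1 and 2) and 144 to 219 CPM in the other 10. The 5 include the 2 with the highest D1-marker sums and the 2 with the fewest genes. Limma's voom with quality weights gave these 5 libraries, in the order listed, weights of 0.394, 0.475, 0.755, 0.0570 and 0.0699. The other 10 had weights of 0.425 to 2.12. Voom called Grik3 lower in D1 in all 3 comparisons (adjusted p = 5.85e-05, 0.00257 and 0.00163), in fits that called 28.5%, 17.6% and 17.0% of all genes. With 4 of the libraries that stand apart left out, edgeR called it in Resilient mice (-0.78, adjusted p = 0.0235), where 12.5% of genes were called.

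Grik4 averaged 22.2 ± 3.84, 24.9 ± 2.78 and 22.8 ± 2.13 CPM in the D1 groups and 17.0 ± 1.11, 16.1 ± 3.68 and 13.1 ± 2.48 CPM in the D2 groups. In Control mice the D1 libraries held 16.0, 26.0, 22.4, 22.1 and 24.6 CPM and all D2 libraries lay between 16.0 and 18.9 CPM. D1 Control replicate 1 was the lowest of the 10, and the other 4 lay above every D2 library. The difference of 0.38 (SE 0.146, adjusted p = 0.108) was not called, and was called without that library (0.49, adjusted p = 0.0276), where 9.07% of genes were. D1 Resilient libraries ran from 20.9 to 27.5 CPM and D2 Resilient from 10.3 to 20.5 CPM, and D1 Susceptible libraries from 20.7 to 26.1 CPM and D2 Susceptible from 9.47 to 16.4 CPM. Neither pair overlapped, as was true of 9.7% and 8.92% of genes. Grik4 was higher in D1 by 0.62 in Resilient (SE 0.146, adjusted p = 0.00533) and by 0.80 in Susceptible libraries (SE 0.147, adjusted p = 0.000266), or 1.54-fold and 1.74-fold by edgeR. These were 0.74 (adjusted p = 0.0011) without D2 Resilient replicate 5 and 0.68 (adjusted p = 0.00281) without D2 Susceptible replicates 1 and 2.

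Grik5 (chromosome 7, 25009849 to 25072346, minus strand) encodes GluK5, the high-affinity partner and the most abundant kainate subunit here. It averaged 135 ± 19.0, 156 ± 16.7 and 161 ± 25.7 CPM in the D1 groups and 175 ± 23.3, 141 ± 27.4 and 165 ± 26.9 CPM in the D2 groups. The classes overlapped in every stress group. The largest difference, -0.37 in Control mice (SE 0.131, adjusted p = 0.0794, edgeR), was not called, and the estimate had the other sign in Resilient mice (0.15). The plot of the other 6 subunits shows the overlap.

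**Figure D3:**
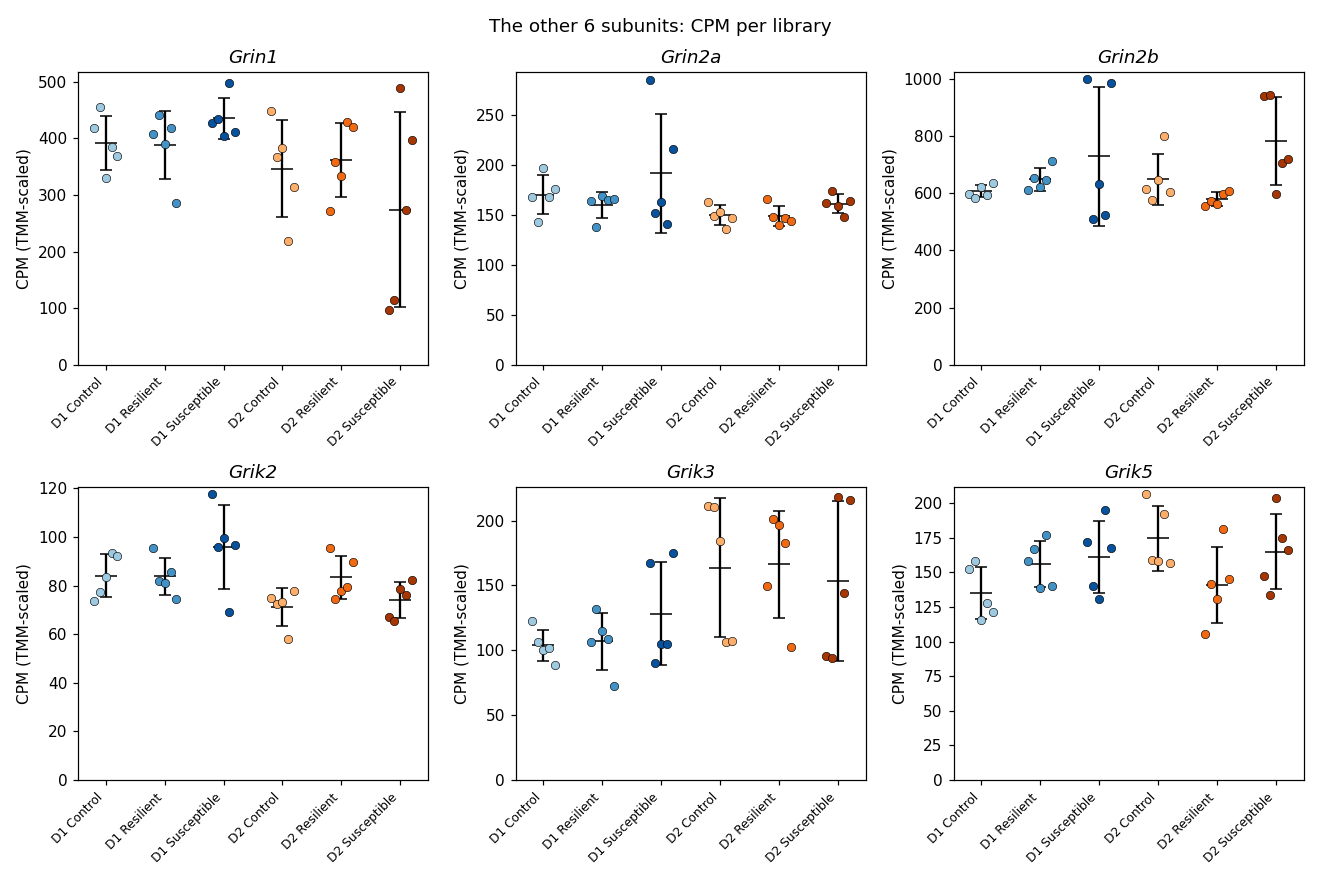
CPM (y axis, linear, from 0) of Grin1, Grin2a, Grin2b, Grik2, Grik3 and Grik5 in the 6 groups (x axis), with 1 point per library and the mean ± SD of 5 libraries in black. D2 Susceptible replicates 1 and 2 are the 2 lowest points of Grin1, at 96.7 and 114 CPM, and 5 of the 15 D2 points of Grik3 lie at 93.7 to 107 CPM.

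Markers of other cell types also differed between the classes, and their levels stand beside these results. The summed CPM of 6 interneuron markers (Sst, Npy, Pvalb, Chat, Slc5a7, Kit) ran from 297 to 441 in Control, from 286 to 423 in Resilient and from 270 to 337 in Susceptible libraries of the D1 class. In the D2 groups it was 71.4 to 258, 67.3 to 179 and 64.2 to 82.1. In the direction of D1, 4, 4 and 5 of the 6 were called in Control, Resilient and Susceptible mice. Slc5a7, which takes choline into cholinergic neurons, was at 0 in 1 D2 Susceptible library. Of 6 markers of cortical projection neurons, 5 were called higher in D1 in each comparison, with sums of 510 to 982 CPM in D1 and 174 to 574 CPM in D2 libraries. All 6 endothelial markers were called lower in D1 in each comparison, with sums of 12.7 to 39.0 against 52.7 to 334 CPM. Called lower in D1 were also 3, 5 and 4 of 6 astrocyte markers, 0, 2 and 4 of 6 oligodendrocyte markers and 0, 2 and 0 of 6 microglia markers. The plot against interneuron markers shows that the 2 D2 libraries with the highest marker sums, 258 and 179 CPM, also had the highest Grin3a of their groups. The part of these cells in the differences of Grin2d, Grin3a, Grik1, Grik2 and Grik4 was not tested.

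**Figure D4:**
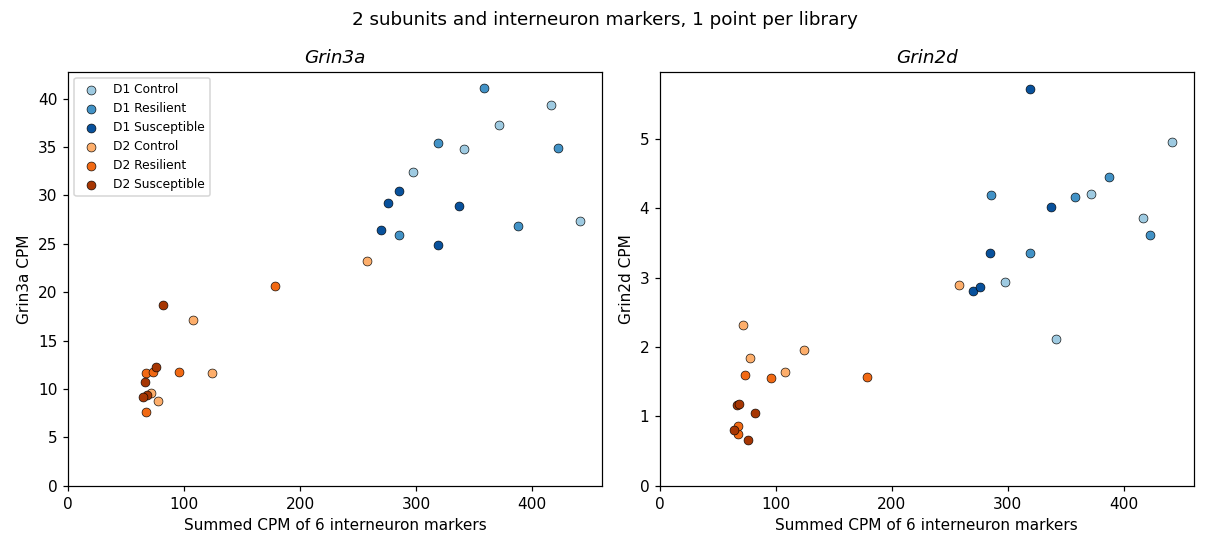
CPM of Grin3a and of Grin2d (y axes) against the summed CPM of 6 interneuron markers (x axes), 1 point per library, coloured by group, all axes linear from 0. D1 libraries lie at marker sums of 270 to 441 CPM and D2 libraries at 64.2 to 258 CPM, with D2 Control replicate 5 and D2 Resilient replicate 5 furthest right among D2.

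The second question was whether the subunits changed with stress within a neuron class. By edgeR 0 of 10 subunits were called in any of the 6 comparisons, among which each class's groups are shared. The background was as low: 0%, 0% and 0% of genes in D1 (Susceptible against Control, Resilient against Control, Susceptible against Resilient), and 0.00516%, 0% and 0.0516% in D2 in the same order. At an unadjusted p under 0.05 there were 0, 0 and 1 subunits in D1, where 2.4%, 2.6% and 3.49% of genes passed, and 2, 3 and 2 in D2, where 15.7%, 4.2% and 19.1% passed. By DESeq2 1 subunit, Grin2d, was called in D2 Susceptible against Control, beside 1.32% of all genes. That test called 0 subunits in D2 Susceptible against Resilient, beside 5.05% of genes, and 0 in the remaining comparisons, beside 0.00517% to 0.0414%. By voom 0 subunits were called in all 6, beside 0% to 0.929% of genes. No subunit separated the 5 libraries of one group from those of the other in the 3 D1 comparisons, where 0.888%, 1.54% and 1.12% of genes did, or between D2 Susceptible and Resilient, where 1.5% did. The median log2 change of the 10 subunits lay between -0.09 and 0.16.

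Grin2d had the smallest p of the stress comparisons. In D2 Control, Resilient and Susceptible libraries its means were 2.13 ± 0.491, 1.26 ± 0.425 and 0.971 ± 0.228 CPM, resting on 90 to 202, 46 to 106 and 43 to 67 counts per library. All 5 Susceptible libraries (0.658 to 1.18 CPM) and all 5 Resilient libraries (0.742 to 1.59 CPM) lay below all 5 Control libraries (1.64 to 2.90 CPM), a separation that 1.31% of genes showed in either comparison. Resilient and Susceptible overlapped. The log2 change was -1.14 (SE 0.283, adjusted p = 0.119, edgeR) for Susceptible and -0.76 (SE 0.280, adjusted p = 1.00) for Resilient against the same Control libraries, so neither passed. For Susceptible, DESeq2 gave -1.12 (adjusted p = 0.0172) in a test that called 1.32% of all genes, and edgeR called it without D2 Susceptible replicate 3 (-1.22, adjusted p = 0.0369), where 4.19% of genes were called against 0.00516% with that library. Without D2 Susceptible replicates 1 and 2 it was -1.29 (adjusted p = 0.400). Over all the alternatives its adjusted p ran from 0.0172 to 0.821, the latter in a fit of only the groups compared. In D1 libraries Grin2d averaged 3.61 ± 1.11, 3.95 ± 0.450 and 3.75 ± 1.20 CPM in Control, Resilient and Susceptible. The difference between the D1 and D2 changes was 1.19 for Susceptible against Control (SE 0.395) and was not called (adjusted p = 0.637, edgeR).

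Interneuron markers in D2 libraries had a median sum of 108 CPM in Control, 73.5 in Resilient and 68.3 in Susceptible. None of the 6 was called between D2 Susceptible and Control, 4 had an unadjusted p under 0.05, and the median log2 change of the 6 was -0.81. Of all genes, 15.7% had an unadjusted p under 0.05 in this comparison, and their median log2 change was -0.03, values that also stand beside the next list. D1-neuron markers had a median sum of 492 CPM in D2 Control (336 to 1231), 384 in D2 Resilient (370 to 1837) and 373 in D2 Susceptible (275 to 650). Of these 7, 0 were called between D2 Susceptible and Control, 3 had an unadjusted p under 0.05 (Drd1, Pdyn and Isl1, at -1.01, -1.77 and -1.69), 6 had a negative estimate, and the median was -0.35. Grin2d itself was called higher in D1 in both stressed groups. The part of either list in the Grin2d values was not tested.

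Grin2b had the smallest p between D2 Susceptible and D2 Resilient. The Susceptible libraries held 939, 945, 598, 707 and 721 CPM and the Resilient ones 554, 573, 564, 598 and 609 CPM. The 2 highest were the libraries with few genes, and the lowest Susceptible value lay inside the Resilient range. The change of 0.43 (SE 0.145, adjusted p = 0.108, edgeR) was 0.22 (adjusted p = 1.00) without these 2 libraries, and was called without Susceptible replicate 3 (0.51, adjusted p = 0.0267), where 9.93% of all genes were called against 0.0516% with it. In the D1 comparisons the smallest p values belonged to Grik5 against Control, 0.25 in Susceptible (SE 0.131, adjusted p = 1.00) and 0.21 in Resilient (SE 0.131, adjusted p = 1.00), both by edgeR. Between D1 Susceptible and D1 Resilient it was Grin2a, at 0.25 (SE 0.124, adjusted p = 1.00, edgeR).

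**Figure D5:**
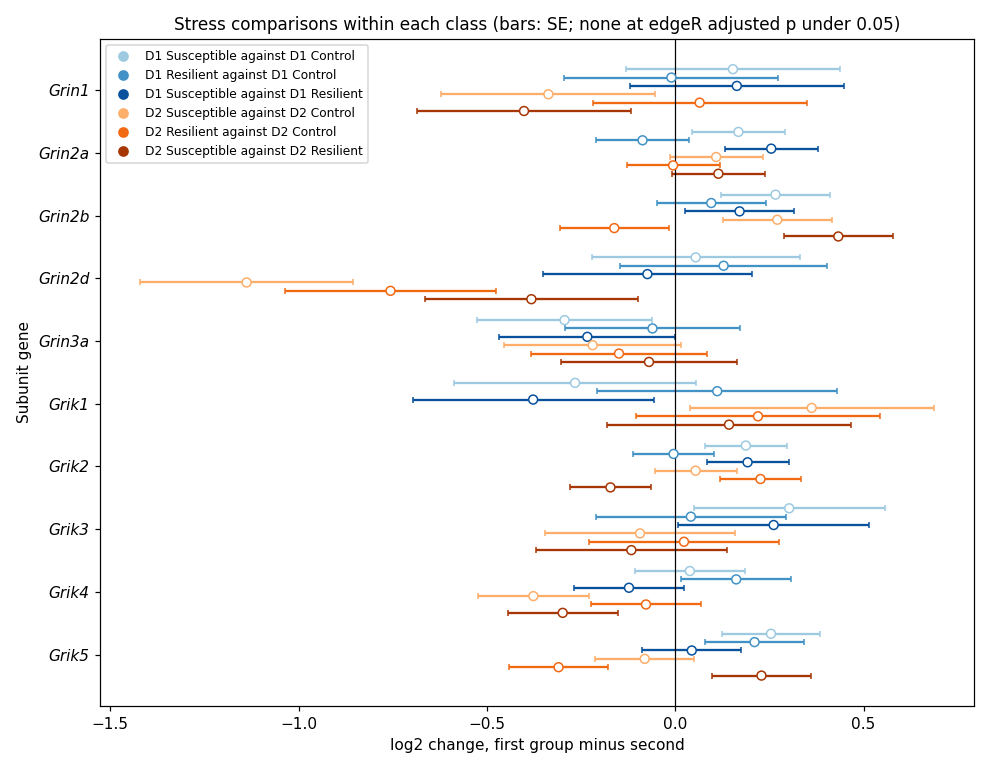
log2 change (x axis, first group minus second) of the 10 subunits (y axis) in the 6 stress comparisons, D1 in blue and D2 in orange; points are edgeR estimates and bars are SE, and all points are open since 0 had an adjusted p under 0.05. The lowest points are Grin2d in D2 Susceptible and D2 Resilient against D2 Control, at -1.14 and -0.76.

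Whether the stress change differed between D1 and D2 was tested as the difference of the 2 changes, and 0 of 10 subunits were called by edgeR in each of 3 tests, as were 0% of all genes. At an unadjusted p under 0.05 there were 1, 2 and 1 subunits, beside 7.79%, 4.99% and 12.4% of genes. For Resilient against Control the smallest p was that of Grik5, whose Control and Resilient means were 135 and 156 CPM in D1 and 175 and 141 CPM in D2, with neither change called. The difference was 0.52 (SE 0.185, adjusted p = 0.850, edgeR), and voom gave 0.57 (adjusted p = 0.0479) while calling 0.826% of all genes. For Susceptible against Resilient it was Grik2, at 0.36 (SE 0.154, adjusted p = 0.330). The larger class difference of Grin2d in stressed mice (1.65 and 1.95 against 0.76 in Control) is thus not shown to differ from that in Control.

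A list of 25 genes that work with these receptors was read alongside: the subunits Grin2c and Grin3b, scaffolds and kinases of the NMDA receptor, suppliers of its co-agonists, and auxiliary proteins of kainate receptors. Klhl17 was not analysed here, and 24 were tested. In Control mice 1 of 24 was called, where 8.3% of all genes were. It was Pick1, a PDZ protein that binds GluK subunits, at -0.43 (adjusted p = 0.0302) with 18.4 ± 3.62 CPM in D1 and 24.7 ± 3.29 in D2. Its difference had the other sign in Resilient mice (0.29, adjusted p = 0.228, edgeR). In Susceptible mice it was -0.28 (adjusted p = 0.109, edgeR), so it was called in neither. In Resilient mice 1 of 24 was called, beside 6.65% of all genes. It was C1ql3, a secreted protein of the family that clusters kainate receptors at synapses, at 1.38 (adjusted p = 0.00212) with 28.2 ± 3.77 against 10.9 ± 3.36 CPM. In Susceptible mice 23.9% of all genes were called, 10.5% as higher in D1 and 13.4% as lower. Of the 24 partner genes 6 were called, all higher in D1, a share of 25% that is near the 23.9% called in either direction. They were Nos1, the neuronal nitric oxide synthase tied to the receptor scaffold (1.33, adjusted p = 0.00126), and Srr, which makes D-serine (0.49, adjusted p = 0.00467). The others were the kinases Camk2a (0.33, adjusted p = 0.00699) and Src (0.47, adjusted p = 0.0108), the receptor Ephb2 (0.72, adjusted p = 0.0345) and C1ql3 (0.83, adjusted p = 0.0378). Without D2 Susceptible replicates 1 and 2, where 10.4% of all genes were called, 3 of 24 were: Nos1 (0.87, adjusted p = 0.00143), Srr (0.33, adjusted p = 0.0117) and C1ql3 (1.40, adjusted p = 0.00487). Camk2a (0.22, adjusted p = 0.108), Src (0.26, adjusted p = 0.175) and Ephb2 (0.36, adjusted p = 0.304) were not. Without D2 Resilient replicate 5, where 7.34% of all genes were called, C1ql3 was 1.48 (adjusted p = 0.00225) and Grin2c was also called, lower in D1 (-1.27, adjusted p = 0.0423). Without D2 Control replicate 5, 3 of 24 were called in Control mice, beside 8.69% of all genes: Pick1 (-0.48, adjusted p = 0.0156), C1ql3 (1.00, adjusted p = 0.0375) and Camk2b (-0.35, adjusted p = 0.0317). In the 6 stress comparisons and the 3 differences of changes, edgeR called 0 of 24, with 0 to 3 at an unadjusted p under 0.05. Of all genes, 2.4% to 19.1% passed that unadjusted limit in the stress comparisons and 4.99% to 12.4% in the differences of changes.

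Genes whose pattern over the 30 libraries lay nearest were found by the root mean square difference of centred log2 CPM. For Grik1, whose own spread about its mean was 0.944, the nearest were Tac1 (0.358), Adcy8 (0.380) and Sfxn1 (0.383). Tac1 and Sfxn1 are on the list of D1 markers used to check the libraries. For Grin2d, with a spread of 0.864, they were Elfn1 (0.372), Syt13 (0.442) and Tac2 (0.453).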

How the data were processed

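The authors deposited raw counts of reads per gene for 30 libraries, with no normalization. The submitters' processing notes name HISAT2 and HTSeq and the builds GRCm38 and mm10, and no source used here gives versions, the annotation or the strand setting. The series table and the files per library held identical counts in 30 of 30 libraries. Lines for reads of no gene, 10.1% to 53.3% of a library, stayed out of library sizes and tests. The male and human data named in the series text were not analysed here.

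Sample titles gave the group and replicate number. Symbols, coordinates and exon lengths came from GENCODE M21. Genes were kept with filterByExpr (minimum count 10, minimum total 15), which left 19368. Library sizes were TMM-scaled. The main test was that of edgeR 4.0.16 under R 4.3.3 (robust quasi-likelihood F test, 1 model of 6 groups, Benjamini-Hochberg over all genes tested). The script was checked on simulated data. CPM use TMM-scaled library sizes. Over all genes the common dispersion was 0.172. A count of 0 allowed up to 3 counts, or 0.0455 to 0.103 CPM by gene counts before TMM scaling. After scaling this limit is higher in D1 Susceptible replicate 1, whose factor was 0.340. P-values measure the spread between pooled libraries.

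All 10 subunits were named, with a test for those called or, where none was, for the one with the smallest p. Partner genes were named when called, and the 3 nearest genes for the subunit with the smallest p in the Control class comparison and in the stress comparisons. Members, lists and markers were chosen with earlier results of these data known. Of the D2 markers Gpr52 was not analysed here. Alternatives were DESeq2 1.42.0, its size factors in edgeR, no filter, a fit of only the groups compared, voom with quality weights (limma 3.58.1), a block for the replicate number and each library left out. After seeing the data, 2 fits were added without D2 Susceptible replicates 1 and 2, alone or together with D2 Resilient replicate 5 and D1 Susceptible replicate 1.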

Additional observations from a re-analysis of the deposited data

Results flagged for a closer look

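Of 60 sets of 5 libraries (10 subunits in 6 groups), 3 held a library whose gap to the nearest of the others was large for the range of the set by Dixon's test, and chance gives about 1 in 20. Grin2a was 137.3 CPM in D1 Resilient replicate 2, where the next was 163.5. Grik1 was 4.624 CPM in D2 Resilient replicate 5, where the next was 2.412, and this library also had the highest sum of D1 markers in its group. Grik2 was 57.94 CPM in D2 Control replicate 4, where the next was 72.25.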

How the results depend on the processing

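Of the 12 counts of called subunits, those of the class comparisons moved most. In Control mice the count of 2 became 4 in a fit of only the groups compared, 4 by DESeq2 and 7 by voom, as the share of all genes called went from 8.3% to 15.6%, 12.3% and 28.5%, and in Susceptible mice the count of 5 became 3 in a fit of only the groups compared, where the share went from 23.9% to 5.48%. In D2 Susceptible against Control the 0 became 1 by DESeq2, and in the difference of changes for Resilient against Control it became 1 by voom. Leaving out each library gave 2 to 3 called in Control, 4 to 4 in Resilient and 4 to 6 in Susceptible class comparisons, 0 to 1 in D2 Susceptible against Control and against Resilient, and 0 in the other 7. The share of all genes called in these fits ran from 4.95% to 9.07%, 4.86% to 7.34% and 17.7% to 31.4% in the class comparisons. For D2 Susceptible it ran from 0% to 4.19% against Control and from 0% to 9.93% against Resilient, and in the other 7 from 0% to 0.789%. The Grin1 change changed sign, though it was called nowhere: between D2 Susceptible and Control from -0.34 to 0.0088 by voom and 0.15 in both fits added after seeing the data, and between D2 Susceptible and Resilient from -0.40 to 0.060 by voom, and to 0.090 and 0.14 in these fits. Replicate numbers did not pair the libraries: same-numbered libraries' deviations correlated at -0.0848 to 0.0779, and 2 of 30 libraries correlated best with their own number. With the replicate block all 12 counts stayed at 0, 2, 4 or 5 as without it. The cause of these shifts was not tested. Depth limits Grin2d most, with 33 to 315 counts per library.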

Other observations

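Grin2b was highest in 5 of 30 libraries, D1 Susceptible replicates 1 and 5 (999 and 984), D2 Control replicate 4 (799) and D2 Susceptible replicates 1 and 2 (939 and 945), a set chosen after the values were seen. The share of reads that fell outside annotated genes, which is a part of the reads not assigned to a gene, was 41.2%, 9.03%, 7.79%, 11.1% and 10.4% in these libraries. In the other 25 libraries Grin2b ran from 511 to 721 CPM and that share from 5.20% to 7.87%. Its part in the Grin2b values was not tested.

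The 2 NMDA subunits outside the main list also had low CPM. Grin3b, a relative of Grin3a known from motor neurons, had medians of 0 to 0.177 CPM in the 6 groups. Grin2c, known mainly from cerebellum and astrocytes, averaged 3.45 ± 2.11 CPM in the Control libraries of D1 and 6.56 ± 3.08 CPM in those of D2 (n = 5 each), and was not called there by edgeR (adjusted p = 0.145). The listed Grin2d averaged 3.61 ± 1.11 and 2.13 ± 0.491 CPM in the same libraries. The GluN2 shares given above leave Grin2c out.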
